A study of Mus musculus with 6 samples.

Results

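The glycocalyx is the sugar-rich coat on the blood side of endothelial cells, and 10 genes of it were followed in sorted bone marrow endothelium: the 4 syndecans (Sdc1, Sdc2, Sdc3 and Sdc4), glypican-1 (Gpc1), the hyaluronan synthase gene Has2, the hyaluronidase genes Hyal1 and Hyal2, the hyaluronan receptor gene Cd44 and the heparanase gene Hpse. They were chosen by name. In the whole series 22180 genes had a probe set of their own, that is, a group of array probes annotated with a single gene. Of the 10 genes, 9 had such a probe set and 8 entered the test. Has2 was left out as dim, and Hyal1 was read only by probe sets that also name its neighbour Naa80. The endothelial cells came from the marrow of male C57BL/6J mice, 5000 sorted cells per sample. For the diabetic group, 3 arrays read mice made diabetic (type 2) with feed of 60 kcal% fat over 4 months, and 3 further arrays read nondiabetic controls. The labels of both groups carry the same diet text and do not say what the controls ate. They give no transgene, no age and no statement that each array came from its own mouse, so each p-value sets a difference only against the scatter among these samples, and that scatter may be technical.

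In vascular biology the glycocalyx is known as a barrier and as a sensor of flow. Syndecans cross the membrane and glypicans are tied to it by a lipid anchor, and both carry chains of heparan sulfate that hold growth factors, chemokines and lipoprotein lipase. Hyaluronan, a long sugar chain without a core protein, is extruded by the synthases, held by CD44 and cut by hyaluronidases, while heparanase cuts heparan sulfate and proteases shed the syndecan ectodomains. Loss of this coat in diabetes has been described in other vascular beds, and the comparison asks whether the transcripts of its parts differ in marrow endothelium of diabetic mice.

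Values were log2 expression, and the median per array lay between 5.21 and 5.28. A gene was called dim when its mean over all arrays lay under 5.07, the 40th percentile of gene means, a level at which signal and background are hard to part. Endothelial markers were present, as the label of the cells states, and all 20 pan-endothelial genes listed, among them Pecam1 and Cdh5, lay above the dim limit. The mean of that list ran from 8.90 to 9.53 in the diabetic and from 8.98 to 9.39 in the nondiabetic arrays. Markers of blood cells were also present. The basophil and mast cell list had 8 of 10 genes above the limit, with Cma1 and Tpsb2 dim. Its mean was 9.43 in the diabetic and 9.39 in the nondiabetic group, with overlap between the groups. The pan-endothelial list averaged 9.11 and 9.20 in the same order. The share of each cell type was not tested. The monocyte and macrophage list had 10 of 13 genes above the limit and ran from 7.56 to 7.74 in diabetic and from 7.12 to 7.41 in nondiabetic arrays, with Adgre1, Mpeg1 and Fcgr1 dim in the mean over all arrays. The neutrophil list had 9 of 14 genes above the limit and ran from 7.32 to 7.40 and from 6.77 to 7.11, with Ltf, Camp, Ly6g, Mmp8 and Retnlg dim. In the monocyte and neutrophil lists the lowest diabetic array exceeded the highest nondiabetic one. Each had p = 0.1 (exact permutation test, two-sided), the smallest that 3 against 3 arrays allow, and 0.467 adjusted over 14 marker lists. In such sorts of whole cell pools, fewer cells of a type and less RNA per cell cannot be told apart.

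No member of the glycocalyx set passed the test between diabetic and nondiabetic endothelium. At an adjusted p under 0.05 (limma with Benjamini-Hochberg adjustment over 13308 tested genes), 0 of the 8 tested members were called, where 0.00751% of all tested genes, a single gene, were called. The adjusted p was 0.997 for each of the 8. At an unadjusted p under 0.05 there was 1 member, Hpse, against 4.25% of all tested genes. Of the 8 tested members, 6 had higher and 2 lower means in diabetic cells, and their median difference was 0.12 on the log2 scale, beside 0.02 over all tested genes. Hpse was the only tested member whose groups did not overlap, with all diabetic arrays below all nondiabetic arrays, as in 2.67% of tested genes. The opposite order, found in 5.28% of tested genes, was seen for 0 tested members.

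**Figure D1:**
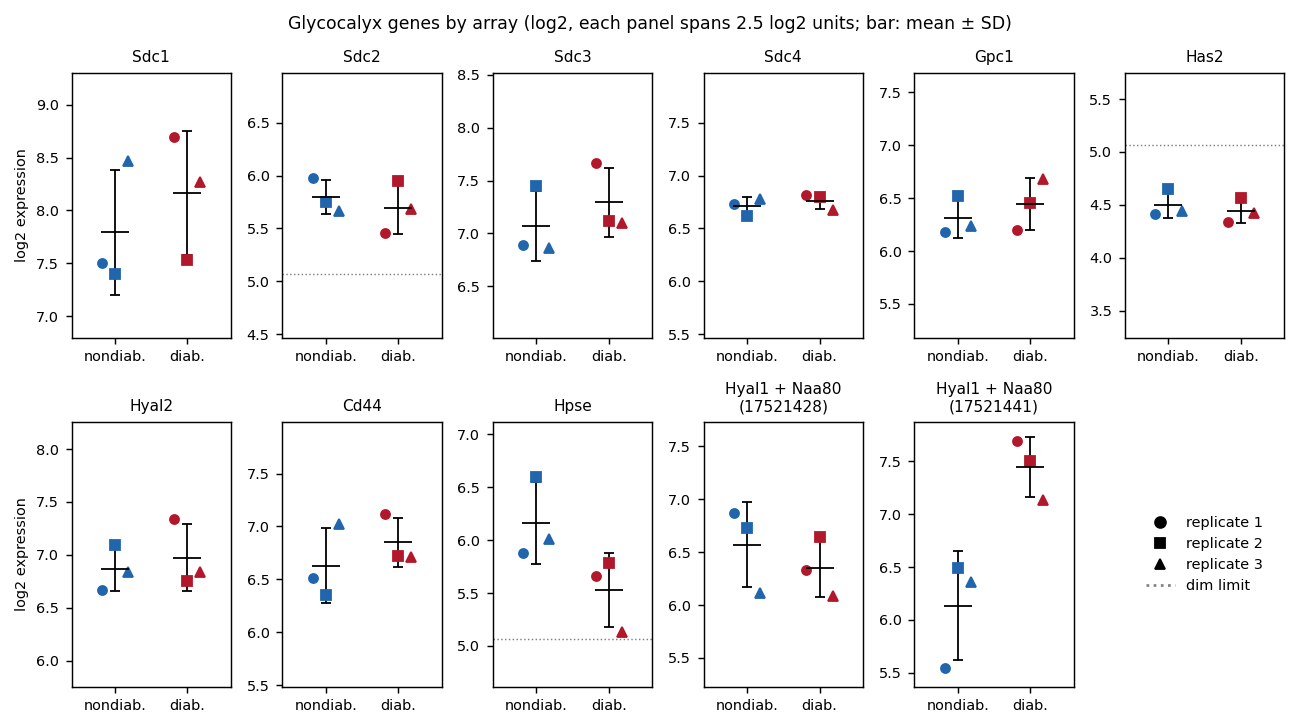
Log2 expression of 9 glycocalyx genes, and of the 2 probe sets naming Hyal1 with Naa80, in each nondiabetic (blue) and diabetic (red) array; symbols give the replicate number, bars the mean ± SD of 3 arrays, and the dotted line the dim limit of 5.07. Each panel has its own position on the log2 axis but the same span. The groups part in Hpse and in probe set 17521441 and overlap in the other panels.

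Sdc1 is the syndecan that also serves as the surface marker CD138 of plasma cells. Its log2 values were 8.69, 7.53 and 8.27 in diabetic replicates 1, 2 and 3 and 7.50, 7.40 and 8.47 in nondiabetic replicates 1, 2 and 3. The arrays thus fell into a higher and a lower level, and each group held arrays of both. The means were 8.16 ± 0.59 and 7.79 ± 0.59 (SD, n = 3 each), a difference of 0.37 (SE 0.36) with a 95% interval of -0.47 to 1.21, which corresponds to 0.722-fold to 2.32-fold. Leaving out diabetic replicate 1 gave 0.11, leaving out nondiabetic replicate 3 gave 0.71, and array weights gave 0.051. The spread within groups was wide: 95.7% of tested genes had a smaller within-group SD. The other probe set of Sdc1 ranked the same 3 arrays highest, with 5.88 and 5.89 in diabetic replicates 1 and 3 and 5.91 in nondiabetic replicate 3 against 4.83 to 5.24 in the others, and differed by 0.34 (SE 0.30). The plasma cell list, of which 11 of 12 genes were above the dim limit and Tnfrsf13b was dim, was also highest in these 3 arrays. Its mean was 7.76, 6.93 and 7.42 in diabetic replicates 1 to 3 and 6.56, 6.96 and 7.19 in nondiabetic replicates 1 to 3, with overlap between the groups (exact permutation test, two-sided, p = 0.3, and 0.7 adjusted over the 14 lists). The part of plasma cell RNA in the Sdc1 level was not tested.

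The other syndecans lay closer together. Sdc4, a widely expressed syndecan of focal adhesions, was the steadiest member, with values of 6.81, 6.79 and 6.68 in diabetic replicates 1, 2 and 3 and 6.73, 6.62 and 6.78 in nondiabetic replicates 1, 2 and 3. Its groups overlapped fully, and 3.18% of tested genes had a smaller within-group SD. The difference of 0.05 (SE 0.14) had an interval of -0.28 to 0.38, or 0.823-fold to 1.30-fold, and its sign turned with a second quantile normalization (-0.0026). Sdc2, a syndecan of mesenchymal and endothelial cells, ran from 5.46 to 5.95 in diabetic and from 5.66 to 5.97 in nondiabetic arrays, and its difference was -0.10 (SE 0.18, interval -0.51 to 0.32). Its sign turned without diabetic replicate 1, where the difference was 0.021, and with array weights, where it was 0.043. Gpc1, the glypican of the set, ran from 6.20 to 6.69 in diabetic and from 6.18 to 6.53 in nondiabetic arrays and differed by 0.13 (SE 0.18, interval -0.29 to 0.56). Without diabetic replicate 3 this was 0.013 and without diabetic replicate 1 it was 0.26. The other probe set of Gpc1 differed by 0.06 (SE 0.13).

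Sdc3, a syndecan with a large ectodomain, and Hyal2, a lipid-anchored hyaluronidase of the cell surface, followed the same arrays. Sdc3 stood at 7.67, 7.12 and 7.10 in diabetic replicates 1, 2 and 3 and at 6.89, 7.45 and 6.86 in nondiabetic replicates 1, 2 and 3. Hyal2 stood at 7.34, 6.75 and 6.84 and at 6.67, 7.10 and 6.84 in the same order. Both were highest in diabetic replicate 1 and next in nondiabetic replicate 2, one array of each group, so the pattern did not separate the groups. The differences were 0.23 (SE 0.23, interval -0.31 to 0.76) for Sdc3 and 0.11 (SE 0.21, interval -0.37 to 0.58) for Hyal2. The mean of the pan-endothelial list was also highest in these arrays, at 9.53 in diabetic replicate 1 and 9.39 in nondiabetic replicate 2 against 8.90 to 9.22 in the others. With that mean as a covariate the differences were 0.31 for Sdc3 and 0.17 for Hyal2, neither of them called. Without diabetic replicate 1 they were 0.040 and -0.076, and array weights turned the sign of Hyal2 as well (-0.038). Other marker lists also ran with this pair over the 6 arrays. Sdc3 correlated at r = 0.75 with the pan-endothelial, 0.77 with the monocyte and 0.79 with the B lymphoid list. For Hyal2 these were 0.78, 0.63 and 0.63. Hyal2 also correlated at 0.73 with the plasma cell list and at 0.67 with the stem and progenitor list. Sdc3 also correlated at 0.67 with the sinusoidal list and at -0.67 with the basophil and mast cell list. The part of these cell types in the levels of Sdc3 and Hyal2 was not tested. A second probe set that names Hyal2 together with Gm9917 differed by -0.27 (SE 0.23), opposite in sign to the probe set of Hyal2 alone.

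The promoters of this pair are shown because their values followed the same arrays: the 250 bases before the annotated start of Sdc3 (chr4:130792287-130792536) and of Hyal2 (chr9:107568913-107569162), both on the plus strand of GRCm38.p6 and taken from RefSeq. Capitals mark matches on either strand to the GC box GGGCGG, a core recognised by Sp1-type factors, and to CACCC, a core of Krüppel-like factor sites; no capital base belongs to both motifs.
Sdc3: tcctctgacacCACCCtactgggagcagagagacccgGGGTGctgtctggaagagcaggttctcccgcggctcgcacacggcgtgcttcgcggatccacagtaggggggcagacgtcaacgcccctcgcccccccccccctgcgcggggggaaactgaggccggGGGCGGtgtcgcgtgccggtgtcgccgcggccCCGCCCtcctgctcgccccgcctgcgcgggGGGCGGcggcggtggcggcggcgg
Hyal2: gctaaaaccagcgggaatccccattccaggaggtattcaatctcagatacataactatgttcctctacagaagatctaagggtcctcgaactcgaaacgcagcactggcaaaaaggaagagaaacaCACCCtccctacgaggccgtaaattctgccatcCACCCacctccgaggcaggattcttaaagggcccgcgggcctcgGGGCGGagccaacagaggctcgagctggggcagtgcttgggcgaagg
The Sdc3 stretch held 3 GC boxes and 2 CACCC matches with 76.4% G or C, and the Hyal2 stretch held 1 and 2 with 55.6%. RefSeq windows of 300 bases, from 250 before to 50 after the start, were at hand for 7 of the 10 genes: Sdc1, Sdc3, Sdc4, Hyal1, Hyal2, Cd44 and Hpse. A GC box occurred in 7 of these 7 windows, beside 58.1% of 13049 windows of tested genes and 35.7% of all 32851 windows. CACCC occurred in 6 of the 7, all but Cd44, beside 63.6% and 57.5%, and the TATA box TATAAA in 0 of the 7, beside 8.25% and 13.6%. These matches describe letters in the windows and were not tested for an effect.

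Cd44, which binds hyaluronan on endothelium and on most leukocytes, lay at 7.12, 6.72 and 6.71 in diabetic replicates 1, 2 and 3 and at 6.51, 6.35 and 7.02 in nondiabetic replicates 1, 2 and 3. Nondiabetic replicate 3 stood among the diabetic values, so the groups overlapped. The difference was 0.22 (SE 0.22, interval -0.28 to 0.72), and it was 0.41 in the fit lacking nondiabetic replicate 3, 0.084 in that lacking diabetic replicate 1 and 0.079 in that lacking nondiabetic replicate 2. The 2 arrays highest in Cd44, diabetic replicate 1 and nondiabetic replicate 3, were also the 2 highest in Sdc1. The monocyte and neutrophil lists were higher in all diabetic arrays, as given above. Over the 6 arrays Cd44 correlated with them at r = 0.34 and 0.32. Its correlation was 0.73 with the plasma cell list and 0.54 with the basophil and mast cell list. The part of these cell types in the Cd44 level was not tested.

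Hpse, the heparanase that trims heparan sulfate chains and that platelets and leukocytes also store, had lower values in the diabetic arrays. It stood at 5.66, 5.79 and 5.13 in diabetic replicates 1, 2 and 3 and at 5.88, 6.60 and 6.01 in nondiabetic replicates 1, 2 and 3. The groups did not overlap, but the gap between the highest diabetic and the lowest nondiabetic array was 0.09, and diabetic replicate 3 lay close to the dim limit. The means were 5.53 ± 0.35 and 6.16 ± 0.39 (SD, n = 3 each), a difference of -0.64 (SE 0.25, unadjusted 95% interval -1.22 to -0.06) or a 1.56-fold lower mean, which did not pass the limma test (adjusted p = 0.997). The other probe set of Hpse read 5.48, 5.15 and 4.72 against 4.97, 5.27 and 5.62, with overlap and a difference of -0.17 (SE 0.24). With the mean of both probe sets the difference was -0.40 and the groups overlapped. Leaving out 1 array at a time kept the sign, with differences from -0.78 to -0.42, the latter without nondiabetic replicate 2. The megakaryocyte and platelet list, with 11 of 14 genes measured and all 11 above the limit, had means of 7.78, 7.81 and 8.83 in diabetic and 7.77, 7.50 and 8.46 in nondiabetic replicates 1 to 3. Its groups overlapped, and diabetic replicate 3, the array lowest in Hpse, was the highest in this list. The arteriolar list, with 14 of 16 genes above the dim limit and Gkn3 dim, had means of 7.96, 7.53 and 7.42 in diabetic and 7.89, 8.19 and 7.77 in nondiabetic replicates 1 to 3, with overlap. Its highest array, nondiabetic replicate 2, and its lowest, diabetic replicate 3, were also the highest and the lowest in Hpse. The neutrophil list ran the other way, with means of 7.32, 7.40 and 7.32 in diabetic and 7.11, 6.77 and 6.86 in nondiabetic replicates 1 to 3, and was lowest in nondiabetic replicate 2. Over the 6 arrays Hpse correlated with the arteriolar list at r = 0.81, with the neutrophil list at -0.80 and with the platelet list at -0.70. These are descriptions of arrays that share their group structure, and the part of these cell types in the Hpse level was not tested.

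The genes whose values over the 6 arrays were most like those of Hpse, by Pearson's correlation among 13307 other tested genes, were Tpbgl, Car7 and Gemin6, with r = 0.98 each. This is a description over 6 arrays that share their group structure, and 57 genes had a correlation over 0.9. Tpbgl differed by -0.48 (SE 0.18), Car7 by -0.49 (SE 0.18) and Gemin6 by -0.54 (SE 0.25), none of them called.

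**Figure D2:**
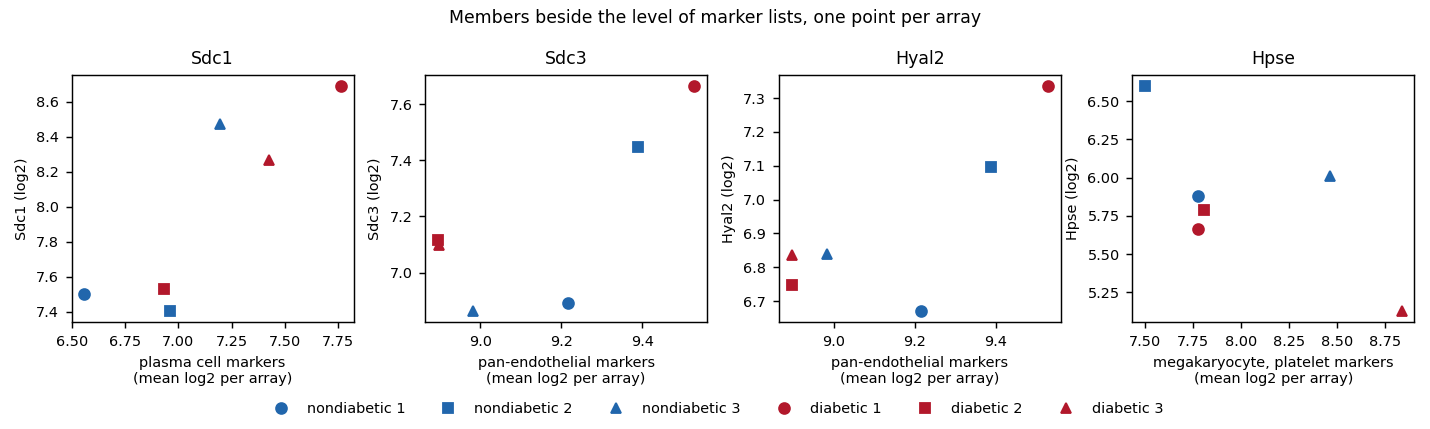
Log2 level of 4 members (y axis) against the mean log2 level of a marker list (x axis), 1 point per array, nondiabetic in blue and diabetic in red. The 3 arrays highest in Sdc1 are the 3 highest in plasma cell markers, diabetic replicate 1 and nondiabetic replicate 2 lead both Sdc3 and Hyal2 and the pan-endothelial markers, and Hpse is lowest in the array highest in platelet markers.

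Has2, the main hyaluronan synthase of endothelium in culture, lay under the dim limit in every array, from 4.34 to 4.57 in diabetic and from 4.42 to 4.65 in nondiabetic arrays, so these values may show background alone. Its second probe set, which also names the antisense gene Has2os, lay lower still, from 3.28 to 3.43. A fit without the dim limit gave Has2 a difference of -0.06 (SE 0.12). Has1, the synthase gene closest to it in role, was dim as well, from 4.45 to 4.66. Has3, which makes shorter hyaluronan chains, was tested and averaged 5.32 ± 0.07 in diabetic arrays and 5.52 ± 0.07 in nondiabetic ones (SD, n = 3 each) and differed by -0.20 (SE 0.14). Its groups did not overlap, with the diabetic arrays lower, as in 2.67% of tested genes, and it was not called. The diabetic values of Has3, from 5.27 to 5.40, lay close to the dim limit.

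Hyal1, the lysosomal hyaluronidase, could not be read on its own. Its gene lies on chromosome 9 next to Hyal2 on one side and, on the other, to Naa80, which encodes the acetyltransferase of actin, and then to Hyal3. Both probe sets that name Hyal1 also name Naa80, so their values cannot be given to either gene. Probe set 17521441 stood at 7.69, 7.50 and 7.14 in diabetic replicates 1, 2 and 3 and at 5.54, 6.50 and 6.36 in nondiabetic replicates 1, 2 and 3. The lowest diabetic array exceeded the highest nondiabetic one by 0.64. In a limma fit over every named probe set, without the dim limit, its difference was 1.31 (SE 0.27, unadjusted interval 0.66 to 1.96), a 2.48-fold higher mean, at an unadjusted p of 0.0020 and an adjusted p of 0.997. Probe set 17521428, which names the same pair, stood at 6.33, 6.64 and 6.09 against 6.87, 6.73 and 6.11, with overlap and a difference of -0.22 (SE 0.23). The probe sets thus disagreed in sign, and neither passed the test. Around them, Hyal3, a hyaluronidase homologue, differed by 0.32 (SE 0.20) with overlap, and by 0.14 both in the fit lacking diabetic replicate 3 and with array weights. Ifrd2, the next gene and named here after its values were seen, stood at 7.56, 7.03 and 7.09 against 6.72, 6.76 and 6.73, a difference of 0.49 (SE 0.16) in the same fit over every named probe set. Other genes nearby, also named after their values were seen, had differences below 0 in that fit, each with overlap. These were -0.15 (SE 0.13) for Zmynd10, -0.11 (SE 0.15) for Rassf1 with Gm9917 and -0.04 (SE 0.12) for Sema3b.

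**Figure D3:**
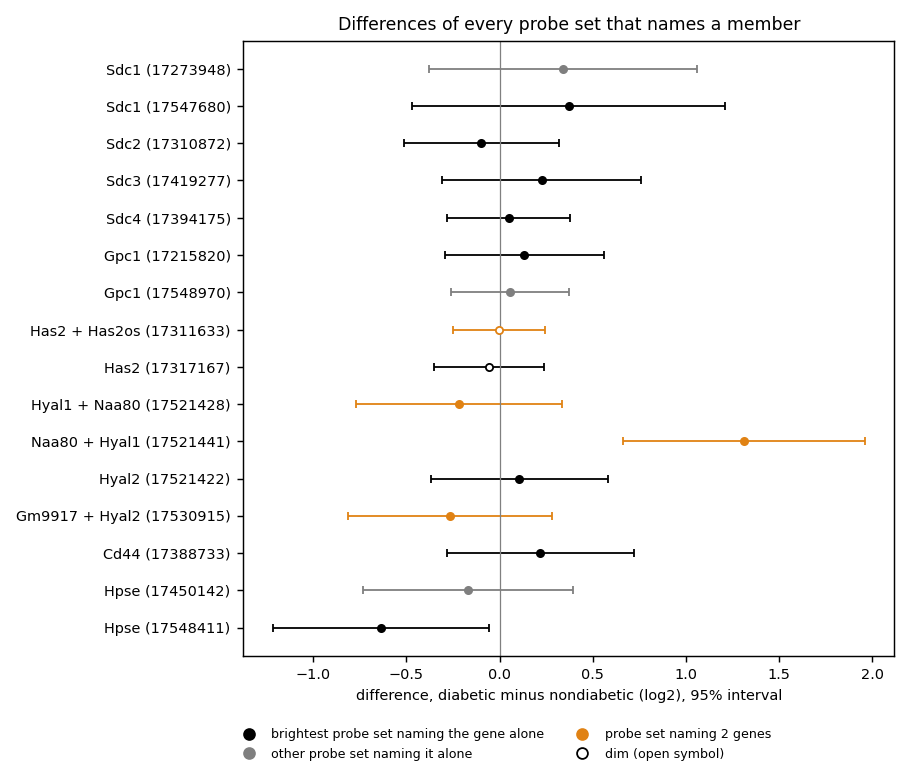
Difference in log2 expression, diabetic minus nondiabetic, with its 95% interval from limma (not adjusted) for every probe set that names a member; black marks the brightest probe set of each gene, grey a second one, orange a probe set naming 2 genes, and open symbols dim probe sets. The intervals of Hpse (17548411) and of Naa80 with Hyal1 (17521441) do not reach 0, while the other probe sets of these genes do.

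The genes that build, hold, edit and shed the coat were followed as 8 lists with 158 genes, of which 150 were measured and 121 tested. No gene of these lists passed the adjusted test, and at an unadjusted p under 0.05 there were 4 of 121, or 3.31%, below the 4.25% of all tested genes. Of the 121, 63 had higher and 58 lower means in diabetic cells, with a median difference of 0.02. The diabetic arrays lay above the nondiabetic arrays for 6 of them (4.96%, beside 5.28% of all tested genes) and below for 7 (5.79%, beside 2.67%).

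Among the other heparan sulfate proteoglycans, the glypicans Gpc2, Gpc3, Gpc4, Gpc5 and Gpc6 were all dim, so Gpc1 was the sole glypican tested. The 6 tested genes of this list, 2 higher and 4 lower, had a median difference of -0.01. Col18a1, a basement membrane collagen that carries heparan sulfate and yields endostatin, had a mean of 6.29 ± 0.14 in diabetic arrays and of 6.04 ± 0.13 in nondiabetic ones (SD, n = 3 each) and differed by 0.25 (SE 0.16) without overlap. Nrp1, a coreceptor for VEGF that can carry such chains, differed by -0.20 (SE 0.31), or by 0.0095 and -0.57 in the fits lacking diabetic replicates 2 and 1.

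Of 20 tested genes of heparan sulfate synthesis 12 had higher and 8 lower means, with a median difference of 0.11. Xylt2, a xylosyltransferase that starts the chains on the core protein, had the lowest p. It stood at 5.39, 5.32 and 5.06 in diabetic replicates 1, 2 and 3 and at 6.04, 5.74 and 5.56 in nondiabetic replicates 1, 2 and 3. These groups did not overlap, and the difference of -0.52 (SE 0.18) came with levels close to the dim limit. Xylt1, the other xylosyltransferase gene of the list and named here after its values were seen, differed by 0.30 (SE 0.25) with overlap. Slc35b2, which carries the sulfate donor into the Golgi, differed by 0.25 (SE 0.16), with the diabetic arrays above the others, and by 0.14 in the fit lacking diabetic replicate 3. Of 9 tested genes that edit or degrade heparan sulfate 7 had higher means and the median difference was 0.11. Naglu, a lysosomal enzyme of heparan sulfate breakdown, stood at 6.17, 5.66 and 6.51 against 5.54, 5.51 and 5.74 and differed by 0.52 (SE 0.23). The groups overlapped through diabetic replicate 2, and the difference was 0.32 in the fit lacking diabetic replicate 3 and 0.27 with array weights. Arsg, a lysosomal sulfatase, differed by -0.25 (SE 0.16) without overlap, and by -0.14 in the fit lacking nondiabetic replicate 2. The diabetic values of Arsg, from 5.29 to 5.39, lay close to the dim limit.

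The chondroitin and dermatan sulfate list had 14 tested genes, 5 higher and 9 lower, with a median difference of -0.02. Bgn, the small matrix proteoglycan biglycan, averaged 9.77 ± 0.41 in diabetic arrays and 9.21 ± 0.34 in nondiabetic ones (SD, n = 3 each) and differed by 0.56 (SE 0.26). Esm1, a proteoglycan secreted by endothelial tip cells, differed by -0.33 (SE 0.22). Groups overlapped for both. Bgn differed by 0.33 in the fit lacking diabetic replicate 1, and Esm1 by -0.18 in that lacking nondiabetic replicate 3 and by -0.12 with array weights. In the list of 11 sialomucins and membrane glycoproteins, 3 genes had higher and 8 lower means, with a median of -0.10. Podxl, the sialomucin podocalyxin that lines the vessel lumen, stood at 8.90, 8.24 and 7.98 in diabetic replicates 1, 2 and 3 and at 8.69, 9.17 and 8.58 in nondiabetic replicates 1, 2 and 3, a difference of -0.44 (SE 0.27) with overlap. It was -0.24 in the fit lacking diabetic replicate 3, -0.26 in that lacking nondiabetic replicate 2 and -0.70 in that lacking diabetic replicate 1. Selplg, the selectin ligand of leukocytes, differed by 0.41 (SE 0.35), a value that was 0.075 in the fit lacking nondiabetic replicate 2, 0.18 in that lacking diabetic replicate 2 and 0.73 in that lacking nondiabetic replicate 3.

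The list of other hyaluronan genes had 21 tested members, 11 higher and 10 lower, with a median of 0.01. Stab2, the scavenger receptor by which sinusoidal endothelium clears hyaluronan, stood at 9.70, 9.01 and 8.80 in diabetic replicates 1, 2 and 3 and at 8.14, 7.97 and 8.12 in nondiabetic replicates 1, 2 and 3. The groups were apart, and the difference of 1.09 (SE 0.24) was not called after adjustment. Lyve1, the hyaluronan receptor of lymphatic and some sinusoidal endothelium, stood at 6.08 ± 0.32 against 6.14 ± 0.13 and differed by -0.06 (SE 0.20), or by 0.096 when diabetic replicate 1 was left out. Cemip2, a cell surface protein linked to hyaluronan breakdown, differed by -0.07 (SE 0.31), with diabetic values from 6.03 to 7.30, and by 0.28 when diabetic replicate 3 was left out. Itih5, of the inter-alpha-trypsin inhibitor family whose heavy chains bind hyaluronan, differed by 0.49 (SE 0.26) with overlap, by 0.18 with array weights and by 0.75 in the fit lacking diabetic replicate 2.

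Proteases and their inhibitors that act on the coat made a list of 18 tested genes, 9 higher and 9 lower, with a median close to 0 (-0.0041). Adamts5, a protease that cleaves proteoglycan core proteins, stood at 9.10, 8.07 and 7.89 in diabetic replicates 1, 2 and 3 and at 6.41, 5.86 and 6.96 in nondiabetic replicates 1, 2 and 3. Its difference of 1.94 (SE 0.37), with the groups apart, was the largest of the 121 genes and was not called after adjustment. Ctsl, the cathepsin that activates heparanase and that macrophages express strongly, stood at 11.23, 10.52 and 10.31 against 9.95, 10.06 and 10.17 and differed by 0.62 (SE 0.24), with the groups apart, and by 0.35 in the fit lacking diabetic replicate 1. The sinusoidal marker list, which holds Stab2 and Adamts5 themselves, ran from 8.42 to 9.01 in diabetic and from 7.96 to 8.17 in nondiabetic arrays, and the monocyte list was higher in the same diabetic arrays; their part in these differences was not tested. Among 23 tested partners of syndecans and CD44, 14 had higher and 9 lower means, with a median of 0.03. Cask, a scaffold that binds syndecan tails, stood at 7.16, 6.48 and 5.85 against 6.79, 6.98 and 7.35 and differed by -0.54 (SE 0.32). In the fit lacking diabetic replicate 3 Cask differed by -0.22, and in that lacking diabetic replicate 1 by -0.87. Ezr, the linker ezrin between membrane proteins and actin, differed by 0.24 (SE 0.17), or by 0.16 and 0.39 in the fits lacking nondiabetic replicates 2 and 3, and both genes overlapped between groups.

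**Figure D4:**
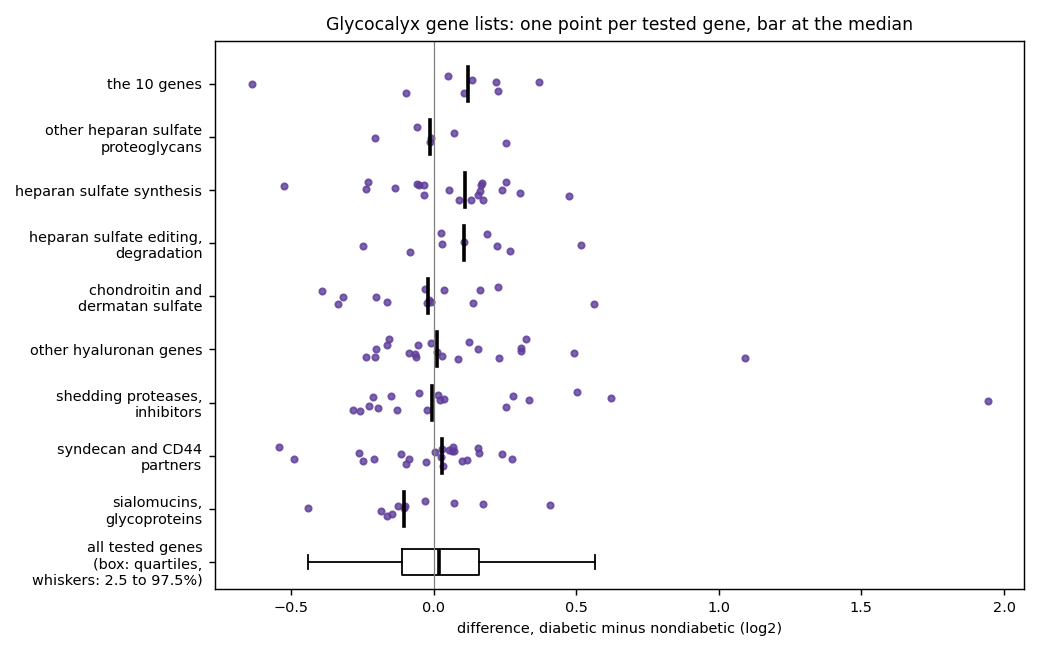
Difference in log2 expression, diabetic minus nondiabetic, of each tested gene of the glycocalyx lists (points, spread vertically for sight only), with the list medians as bars and the quartiles of all 13308 tested genes as a box. List medians lie between -0.10 and 0.12, and the points far to the right are Adamts5 (1.94) and Stab2 (1.09).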

How the data were processed

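Total RNA of sorted cells was amplified with the Ovation Pico WTA System V2, labelled with biotin and hybridised to arrays, per the labels' protocols. The log2 values were deposited by the authors after RMA, per the submitters' processing notes, a method that generally corrects background, equalises array distributions and gives 1 summary per probe set; for software, version and probe annotation, the sources used here say nothing. Of 41345 probe sets, 23521 named 1 gene in the platform annotation, which can be old, 1814 several and 16010 none. Each of 22180 genes took its brightest probe set by the mean over 6 arrays, and 8872 dim genes were left out. limma 3.58.1 in R 4.3.3 compared 3 diabetic with 3 nondiabetic arrays (lmFit, eBayes, no covariates), with Benjamini-Hochberg adjustment over 13308 genes and a threshold of 0.05. Differences are diabetic minus nondiabetic. The small number of arrays limits precision. The procedure was tested on simulated data.

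The members, the lists and the tests were chosen with earlier results of these data known. Named genes are all members, the 2 tested genes with the lowest p in each list, 6 chosen hyaluronan genes (Has1, Has3, Hyal3, Lyve1, Stab2 and Cemip2), marker genes named beside a member, and the 3 genes most like the member with the lowest p. Marker lists whose levels are not given above overlapped between groups. Their differences in mean were 0.35 for B lymphoid, -0.04 for T and NK and -0.08 for erythroid genes. They were -0.03 for stem and progenitor, -0.03 for stromal and osteoblast and 0.12 for pericyte and smooth muscle genes. Alternatives were no dim limit, a limit at the 60th percentile, the mean of probe sets, every probe set naming 1 gene, quantile normalization again, median centring, trended robust variances, array weights, a replicate block, a pan-endothelial covariate and each array left out. A fit of every named probe set was added after seeing the data.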

Additional observations from a re-analysis of the deposited data

How the results depend on the processing

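The count of members past the threshold was 0 under all 17 alternatives, and so was that of the other glycocalyx genes. The count of tested members whose groups do not overlap was 1 as reported and 0 with the limit at the 60th percentile, where Hpse was left out as dim. It was 0 with the mean of the probe sets, and 1 to 3 with 1 array left out, where fewer arrays are compared. Over all tested genes this count was 1058 as reported and 713 with the limit at the 60th percentile, which leaves fewer genes. It was 1064 with the mean of the probe sets and 2108 to 2668 with 1 array left out. Over all genes 1 was called, and 0 with the limit at the 60th percentile; leaving out 1 array gave 0 to 1. Signs turned for Sdc2 (0.043 with array weights, and -0.22 to 0.021 with 1 array left out), Sdc4 (-0.0026 with quantile normalization again), Hyal2 (-0.038 with array weights, and -0.076 to 0.22 with 1 array left out), Cemip2 (0.041 with the pan-endothelial covariate, and -0.35 to 0.28 with 1 array left out), Nrp1 (-0.57 to 0.0095) and Lyve1 (-0.23 to 0.096), the last 2 with 1 array left out. The cause was not tested. Differences with 1 array left out ran from 0.11 to 0.71 for Sdc1 (0.051 with array weights), 0.04 to 0.42 for Sdc3, 0.01 to 0.26 for Gpc1 and 0.08 to 0.41 for Cd44. No sign was seen that the replicate numbers pair the arrays, though with 3 arrays per group this check cannot exclude it. Deviations of arrays with the same number correlated at -0.04, -0.06 and 0.02, and with the replicate block 0 members and 1 gene were called. Only 3 arrays per group limit what can be seen: the median standard error was 0.19 on the log2 scale.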
